A study of Mus musculus with 8 samples.

Results

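The cardiac myosins are the motor proteins of the heartbeat: pairs of heavy chains, each carrying an essential and a regulatory light chain, assemble into the thick filaments of the sarcomere. The genes described here are the heavy chains Myh6, Myh7 and Myh7b, the light chains Myl2, Myl3, Myl4 and Myl7, and Mybpc3, the cardiac myosin-binding protein C. They were taken by name, and a gene counted as measured where the accession of a non-control probe matched it. This found 7 of the 8 genes, of 18217 genes matched on the array, with 11 probes among them: Myh6, Myh7, Myl3 and Myl4 had 2 each and Myl2, Myl7 and Mybpc3 had 1. No probe was matched to Myh7b, and no value is given for it.

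Single-colour Agilent whole-genome arrays, 1 per mouse, measured messenger RNA of the heart in 8 C57BL/6J males aged 9 weeks. The 4 satiated mice ate a standard pellet diet, and the 4 fasted mice were kept without food for 2 days with free access to water. The labels name no transgene or drug. The comparison addresses the change in heart transcripts with fasting. The labels number the replicates and say nothing of housing or dissection, so each p-value here reflects the spread between these 8 samples.

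In the adult mouse ventricle most heavy chain is the fast alpha isoform encoded by Myh6. The slow beta isoform encoded by Myh7 prevails before birth and returns under haemodynamic stress and in hypothyroidism, and thyroid hormone raises transcription of Myh6 and lowers that of Myh7. Myl2 and Myl3 are the regulatory and essential light chains of the ventricle, whereas Myl7 and Myl4 are their atrial counterparts. A whole heart holds both chambers and many other cell types, and in such bulk RNA fewer cells of a type and less RNA per cell cannot be told apart.

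After the fast, Myh7 rose 8.96-fold. The atrial light chain gene Myl7 fell 1.49-fold on its 1 probe, with a call that was lost in 10 of 21 alternative analyses. The probes of Myl4 were also lower, with a call that depended on the probe. Myh6, Myl2 and Myl3 gave mean differences of -0.06 to 0.02 on the log2 scale. By limma, with p-values adjusted after Benjamini and Hochberg and a threshold of 0.05, 1 of the 7 measured genes rose and 1 fell. Over all tested genes and unnamed probes that rule called 20.2%, with 9.82% higher and 10.4% lower, so 2 calls among 7 genes are not set apart from the background. The plot of the members in single hearts shows the values behind these counts.

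**Figure D1:**
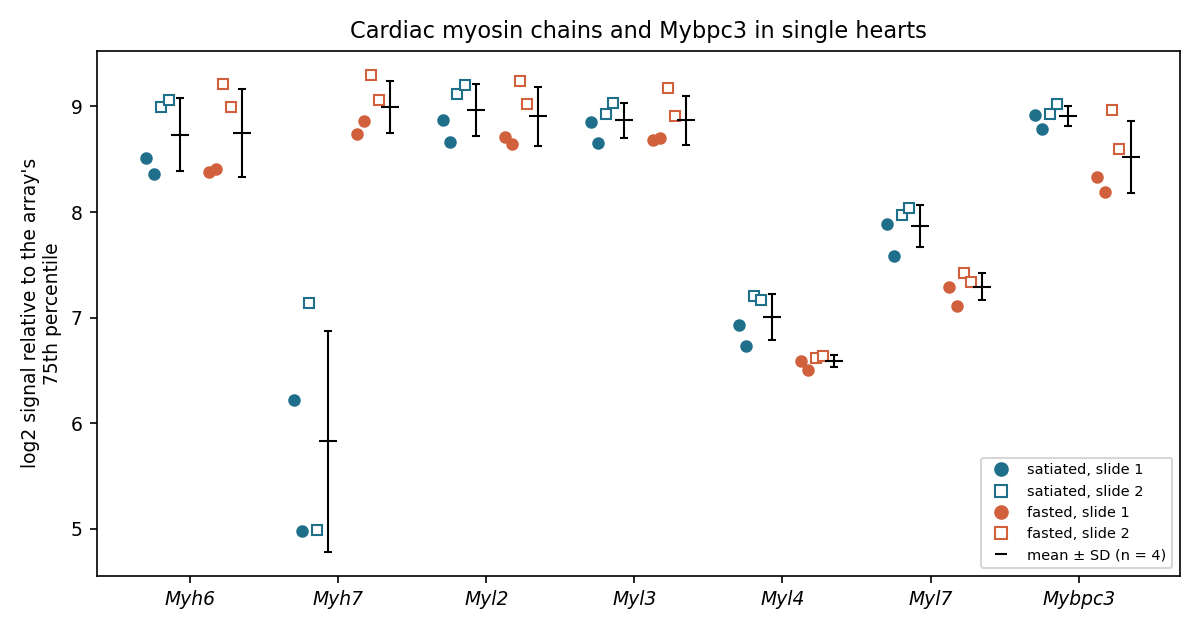
The log2 signal relative to the 75th percentile of each array is plotted for the representative probe of each measured gene, with 1 point per heart, filled for slide 1 and open for slide 2, and the group mean ± SD (n = 4). The Myh7 values of the fasted hearts, 8.74 to 9.30, lie above all satiated values, 4.98 to 7.14, while the groups overlap for Myh6, Myl2, Myl3 and Mybpc3.

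The arrays lay on 2 slides, with replicates 1 and 2 of both groups on slide 1 and replicates 3 and 4 on slide 2. Between 54.8% and 69.4% of spots per array were well above background, and no spot was saturated. The median log2 fold change over the 20209 tested genes and unnamed probes was -0.00425, with 1984 higher and 2093 lower calls. Scaling to the cardiomyocyte markers instead moved that median to 0.36 and the calls to 5949 higher and 687 lower, so negative changes and list medians smaller in size than this shift turn positive under it. The mean change of these 12 markers was -0.36 and their median change -0.17, so the 2 strong falls given next weigh on this scaling. Of 12 cardiomyocyte marker genes none rose and 2 fell by limma, namely Actc1, cardiac alpha actin (-1.64 ± 0.13, log2 fold change ± SE), and Casq2, the calcium store protein of the sarcoplasmic reticulum (-1.40 ± 0.35). In the list 3 had an unadjusted p under 0.05 in limma, against 6834 of all 20209 tested features. The summed signal of that list was 2031 to 2272 times the 75th percentile in satiated and 1704 to 2132 times in fasted hearts, and none of its genes was at background. The hearts thus carried the markers of their labelled tissue.

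Myh6 and Myh7 are neighbours on chromosome 14 in the RefSeq gene table, and the long noncoding RNA gene Mhrt overlaps Myh7. The promoter windows of both heavy chain genes, the 250 bases before an annotated start, are shown because these neighbours gave unlike changes. The window of Myh7 (RefSeq, GRCm38.p6, chr14:54994627-54994876, minus strand) is the first of its 2 windows in the table, and that of Myh6 (chr14:54966608-54966857, minus strand) is its single listed window. The window of Myl7 (chr11:5898783-5899032, minus strand) is added as that of the light chain gene that fell. Capitals mark matches to MCAT, the binding site of TEAD factors, spelled CATTCC or GGAATG on the other strand.
Myh7: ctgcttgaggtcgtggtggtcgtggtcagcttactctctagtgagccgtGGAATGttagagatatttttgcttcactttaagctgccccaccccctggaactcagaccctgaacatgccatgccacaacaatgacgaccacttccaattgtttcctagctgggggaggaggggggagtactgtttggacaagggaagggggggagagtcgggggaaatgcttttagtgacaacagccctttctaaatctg
Myh6: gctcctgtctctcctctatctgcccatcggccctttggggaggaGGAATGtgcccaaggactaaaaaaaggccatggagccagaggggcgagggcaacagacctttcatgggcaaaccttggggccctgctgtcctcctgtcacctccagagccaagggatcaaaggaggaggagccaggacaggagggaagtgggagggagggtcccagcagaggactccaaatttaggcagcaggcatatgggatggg
Myl7: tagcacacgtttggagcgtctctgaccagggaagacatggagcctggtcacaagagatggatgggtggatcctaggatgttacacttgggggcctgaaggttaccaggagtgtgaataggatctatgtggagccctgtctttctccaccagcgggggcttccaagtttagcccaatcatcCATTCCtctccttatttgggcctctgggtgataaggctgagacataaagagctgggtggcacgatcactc
The match began 201 bases before the start in Myh7, 206 bases before it in Myh6 and 70 bases before it in Myl7. All 8 listed genes had a window, and 4 of them, these 3 and Myl3 with 2 matches, held the motif in at least 1 window, against 12.6% of 32851 windows of the same length. The second window of Myh7 held no match. The thyroid hormone response half-site AGGTCA, searched on both strands, was found in 2 of the 8, Myh7b and Myl2, against 14% of all windows. Only these exact letters were searched, so half-sites spelled otherwise were not counted, and their absence from the Myh6 and Myh7 windows is not shown. The letters TATAAA were found in 1, Myl2, against 12.4%, and the GATA motif AGATAA in 2, Myh7b and Myl2, against 9.99%. The shares count single windows, while the 8 genes had 10 windows among them and a gene counted if any of its windows matched. This favours the genes in the comparison. A match describes letters in the window and was not tied to a bound factor.

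Each of the 3 heavy chain genes also hosts a microRNA, and these are shown because their hairpins lie within the genes measured here. The mature 3p strands of the Myh6 and Myh7 hairpins and the 5p strand of the Myh7b hairpin follow from RefSeq (GRCm38.p6), with the seed, bases 2 to 8, in capitals. Their positions are chr14:54949072-54949093 and chr14:54975710-54975731 on the minus strand and chr2:155622893-155622913 on the plus strand.
mmu-miR-208a-3p in Myh6: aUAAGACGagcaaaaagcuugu
mmu-miR-208b-3p in Myh7: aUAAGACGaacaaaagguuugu
mmu-miR-499-5p in Myh7b: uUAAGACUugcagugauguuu
The strands in Myh6 and Myh7 share the seed UAAGACG, and that in Myh7b has UAAGACU. The microRNAs themselves were not analysed here.

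Myh7, the slow beta heavy chain, had the largest change of the 7 genes. On its representative probe A_51_P143162 the log2 signals were 6.22, 4.98, 7.14 and 4.99 in satiated replicates 1 to 4 and 8.74, 8.86, 9.30 and 9.06 in fasted replicates 1 to 4. Every fasted heart lay above every satiated heart, and the satiated hearts differed among themselves far more than the fasted hearts did. The SD was 1.05 in the satiated and 0.24 in the fasted hearts (n = 4 each). The rise was 3.16 ± 0.47 on the log2 scale (SE, n = 4 and 4), or 8.96-fold, with a 95% interval of 2.10 to 4.23 and an adjusted p of 0.00334 in limma. Among all 20209 tested genes and probes it was the 44th largest rise. Groups that do not overlap were found for 27.6% of these. The rise was 3.21 on slide 1 and 3.12 on slide 2. With slide 2 alone, 2 hearts against 2, limma gave an adjusted p of 0.118, and there 1 feature of the 20209 was called in all.

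The other Myh7 probe, A_52_P88033, gave 6.46, 5.20, 7.19 and 5.13 in the satiated hearts and 8.76, 8.75, 9.01 and 8.78 in the fasted hearts. Its rise was 2.83 ± 0.44 (adjusted p = 0.00386 in limma over all probes on their own, of which 21.1% were called). Both probes therefore placed satiated replicates 3 and 1 highest and replicates 2 and 4 lowest. The rise was larger by 0.34 on A_51_P143162 (exact permutation test, two-sided, p = 0.0286, and adjusted p = 0.0762 over the 4 genes with paired probes). In the fasted hearts the signals reached 71.7% to 85.0% of the brightest spot of their array on A_51_P143162 and 67.4% to 72.5% on A_52_P88033, against 4.97% to 24.7% in the satiated hearts over both probes. The part of the array's upper range in the size of the rise was not tested.

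Beta heavy chain is also the heavy chain of slow skeletal muscle, so markers of skeletal muscle are given beside it. The fast skeletal genes stood out in satiated replicate 1: their summed signal, with Myh4 left out, was 241 times the 75th percentile there, against 71.1, 74.1 and 90.0 in satiated replicates 2, 3 and 4 and 49.3 to 71.8 in the fasted hearts. Actn3, the alpha-actinin of fast fibres, stood at 3.58 in satiated replicate 1 and between -4.35 and -3.28 in the other hearts. Satiated replicate 3, which had the highest Myh7 of its group, did not share this. Of 11 measured fast skeletal genes none rose and 1, Myl1, fell. None of the 12 listed was below background on all arrays. Tnni1, the slow skeletal troponin I, was at -3.05 to -2.15 in the satiated and -3.29 to -2.43 in the fasted hearts, overlapping and low. Without satiated replicate 1 the rise of Myh7 was 3.29 (adjusted p = 0.00949 in limma), and without satiated replicate 3 it was 3.60 (adjusted p = 0.00205).

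The probe A_51_P338183 is named for Mhrt, a cardiac long noncoding RNA transcribed from the Myh7 locus, in the scanner tables of slide 2 only, and those of slide 1 give it another accession. It was singled out after the other results were known. Its log2 signals were 5.05, 4.92, 4.86 and 4.95 in satiated replicates 1 to 4 and 2.93, 2.87, 2.94 and 2.60 in fasted replicates 1 to 4. The groups lay far apart with little spread in either, opposite in direction to Myh7. The fall was 2.11 (-2.11 ± 0.12, SE), or 4.31-fold, with an adjusted p of 0.000118 in limma, and the difference was -2.08 on slide 1 and -2.13 on slide 2. The satiated hearts that were high for Myh7, replicates 1 and 3, were the highest and the lowest of their group on this probe.

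Myh6, the fast alpha heavy chain, showed no difference that passed the test. Its representative probe A_52_P117510 gave 8.51, 8.36, 9.00 and 9.06 in satiated replicates 1 to 4 and 8.38, 8.41, 9.21 and 9.00 in fasted replicates 1 to 4. The groups overlapped fully, and the arrays of slide 2 were higher than those of slide 1 in both groups. The difference was 0.02 ± 0.25, with a 95% interval of -0.56 to 0.59 (adjusted p = 0.976 in limma). Its SE was 0.09 in the fit with a slide term (adjusted p = 0.904). The other probe, A_51_P512210, gave -0.02 ± 0.23. These spots held 53.2% to 86.4% of the brightest signal of their array on A_52_P117510 and 31.8% to 48.2% on A_51_P512210.

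Because both heavy chains were read on the same array, the change of their log2 difference within each heart could be tested with array-wide shifts removed. The difference between Myh7 and Myh6 rose by 3.15 from satiated to fasted hearts, an 8.86-fold change of the ratio (exact permutation test, two-sided, p = 0.0286, the smallest p that 4 against 4 hearts can give, and adjusted p = 0.0286 over the 3 such pairs tested). Relative to the satiated mean, the satiated hearts lay at 0.61, -0.48, 1.04 and -1.17 and the fasted hearts at 3.26, 3.36, 3.0 and 2.97. The groups did not overlap. The change was 3.25 on slide 1 and 3.05 on slide 2. The levels of different probes are not set against each other, since probes differ in how brightly they bind.

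**Figure D2:**
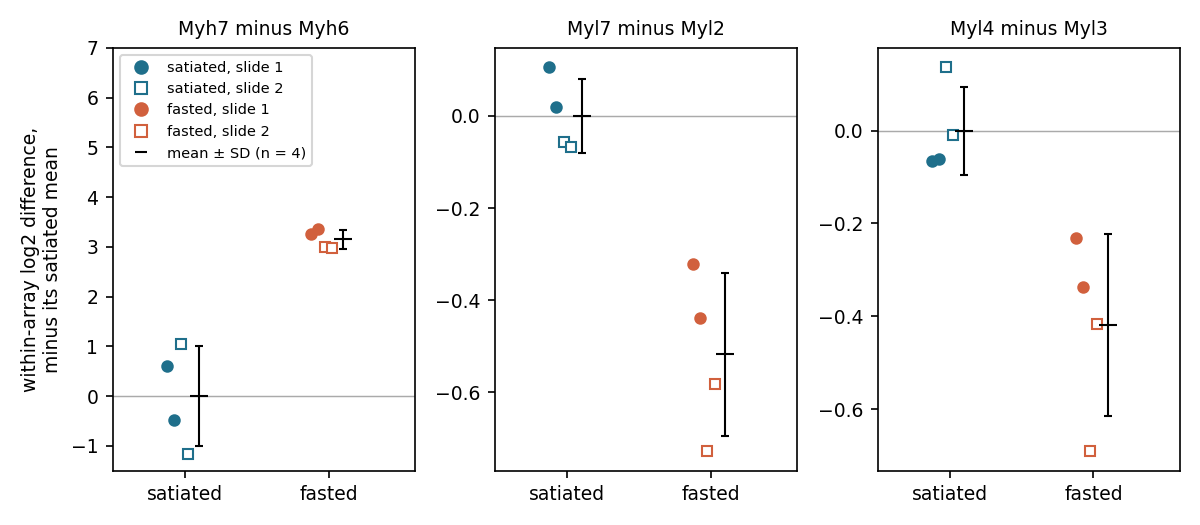
The within-array log2 difference between 2 myosin genes, minus its mean over the satiated hearts, is plotted for each heart (filled, slide 1; open, slide 2) with the group mean ± SD (n = 4), on an axis of its own in each panel. Fasted hearts lie at 2.97 to 3.36 for Myh7 minus Myh6, at -0.73 to -0.32 for Myl7 minus Myl2 and at -0.69 to -0.23 for Myl4 minus Myl3, apart from the satiated hearts in each panel.

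Among the regulatory light chains, which sit at the lever arm and are phosphorylated by myosin light chain kinase, the atrial form fell and the ventricular form did not pass. Myl7 gave 7.89, 7.59, 7.97 and 8.04 in satiated replicates 1 to 4 and 7.29, 7.11, 7.42 and 7.34 in fasted replicates 1 to 4. All fasted values were below all satiated values. The change was -0.58 ± 0.14 (SE, n = 4 and 4), a 1.49-fold decrease, with an adjusted p of 0.0213 in limma, and it was -0.53 on slide 1 and -0.62 on slide 2. The call was lost without satiated replicate 1, 3 or 4 or fasted replicate 1 (adjusted p = 0.0532 to 0.0661), with the median in place of the 75th percentile (adjusted p = 0.0548) with the authors' deposited table (adjusted p = 0.0540), without the filter on dim probes (adjusted p = 0.0702), on either slide alone and with the cardiomyocyte scaling (-0.21, adjusted p = 0.194). The fit with a slide term, where 35.5% of all features passed, kept it (adjusted p = 0.00455).

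Myl2, the ventricular regulatory light chain, gave 8.88, 8.67, 9.12 and 9.20 in the satiated and 8.71, 8.65, 9.24 and 9.02 in the fasted hearts. The groups overlapped, and the difference was -0.06 ± 0.18, with a 95% interval of -0.48 to 0.36 (adjusted p = 0.860 in limma). Within hearts the difference between Myl7 and Myl2 fell by 0.52, to 0.699 of the satiated ratio (exact permutation test, two-sided, p = 0.0286, adjusted p = 0.0286). It fell by 0.44 on slide 1 and by 0.59 on slide 2.

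The essential light chains brace the same lever arm. Myl4, the atrial form, gave 6.93, 6.73, 7.20 and 7.17 in satiated replicates 1 to 4 and 6.59, 6.50, 6.62 and 6.63 in fasted replicates 1 to 4 on its representative probe A_52_P544523. The groups did not overlap, yet the difference of -0.42 ± 0.13 did not pass (adjusted p = 0.0611 in limma). It passed with the replicate number as a block (adjusted p = 0.0311), where 32.1% of all features passed, with a slide term (adjusted p = 0.0132), where 35.5% passed, and without satiated replicate 2 (-0.51, adjusted p = 0.0445). Under the cardiomyocyte scaling the difference was -0.06 (adjusted p = 0.764). The other probe, A_51_P413130, which the rule on brightness did not choose, gave 7.05, 6.76, 7.18 and 7.07 in the satiated and 6.48, 6.46, 6.47 and 6.45 in the fasted hearts. There the fall of 0.55 (-0.55 ± 0.12) passed over all probes (adjusted p = 0.0156 in limma). The SD of the fasted hearts on that probe was 0.016, against 0.18 in the satiated hearts.

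Myl3, the ventricular essential light chain, gave 8.86, 8.65, 8.93 and 9.04 in the satiated and 8.68, 8.70, 9.17 and 8.91 in the fasted hearts on its representative probe A_51_P177210. The difference was -0.00054 ± 0.15, with a 95% interval of -0.35 to 0.35 (adjusted p = 0.999 in limma). Under the cardiomyocyte scaling it was called upward (0.36, adjusted p = 0.0436). Its other probe, A_51_P434910, gave -0.28 ± 0.12 (adjusted p = 0.128), with satiated values of 5.42 to 5.63 and fasted values of 5.16 to 5.43. These groups overlapped only at fasted replicate 3. That probe stood at 5.65% to 7.79% of its array's brightest spot and A_51_P177210 at 67.6% to 82.3%. The changes of these probes differed by 0.28 (exact permutation test, two-sided, p = 0.0571, adjusted p = 0.0762 over the 4 genes with paired probes). Within hearts the difference between Myl4 and Myl3 fell by 0.42, to 0.748 of the satiated ratio (exact permutation test, two-sided, p = 0.0286, adjusted p = 0.0286), by 0.22 on slide 1 and by 0.62 on slide 2.

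Both atrial light chain genes were lower in the fasted hearts, and other atrial markers are given beside them. Of 8 atrial marker genes none rose and 1 fell, the connexin Gja5 (-1.55 ± 0.30). The list's median was -0.01. Bmp10, a growth factor of the atrial wall, gave -0.71 ± 0.40 and Mybphl, a relative of myosin-binding protein H, -0.66 ± 0.43. Sln, the sarcolipin of atrial calcium pumps, gave 0.03 ± 0.14 and Nppa, the atrial natriuretic peptide, 0.14 ± 0.12. Bmp10, Mybphl, Sln and Nppa were not called, nor were Dkk3, Kcnj3 and Nr2f2, the rest of the list. In the fit with a slide term, where 35.5% of all features passed, 2 of the 8 passed, both lower. They were Gja5 (adjusted p = 0.00420) and Mybphl (adjusted p = 0.0150). The summed signal of the list was 605 to 742 times the 75th percentile in the satiated and 680 to 842 times in the fasted hearts, and none of the 8 was at background. Nppa and Sln, with satiated means of 8.92 and 7.63 on the log2 scale, made up most of this sum, which therefore shows little of the other genes. Of 5 ventricular markers 1 fell, Kcne1 (-2.88 ± 0.19), and 2 had an unadjusted p under 0.05 in limma, against 6834 of 20209 tested features. The median of these 5 was -0.31. Their summed signal was 6.76 to 9.16 times the 75th percentile in the satiated and 3.14 to 4.91 times in the fasted hearts. This sum includes Kcne1, whose share in it was not computed, and the other 4 markers were not called. The part of chamber content in the values of Myl4 and Myl7 was not tested.

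Mybpc3, the regulator that ties the myosin heads to the thick filament backbone, gave 8.92, 8.79, 8.93 and 9.02 in satiated replicates 1 to 4 and 8.33, 8.19, 8.97 and 8.60 in fasted replicates 1 to 4. Fasted replicate 3 lay among the satiated hearts and the other 3 fasted hearts lay below them. The difference was -0.39 ± 0.18, with a 95% interval of -0.80 to 0.02, and did not pass (adjusted p = 0.163 in limma). It was -0.59 on slide 1 and -0.19 on slide 2. Without fasted replicate 3 it was -0.54 and passed (adjusted p = 0.0313), as it did with quantile normalization (-0.43, adjusted p = 0.0300) and with array weights (-0.55, adjusted p = 0.0172). Under the cardiomyocyte scaling it was -0.03 (adjusted p = 0.894).

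**Figure D3:**
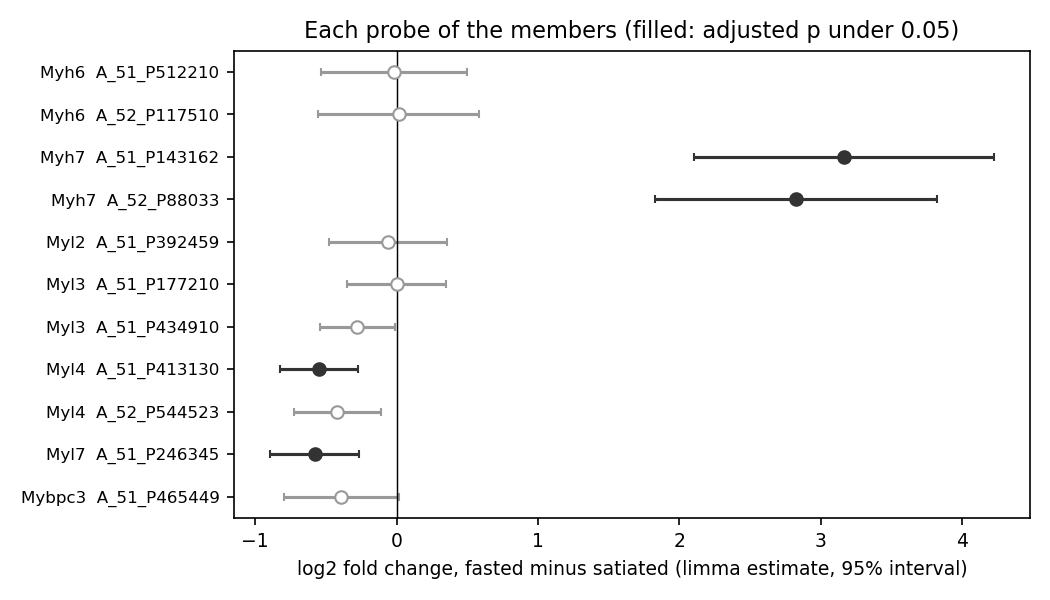
The log2 fold change, fasted minus satiated, is plotted with its 95% interval from limma for each of the 11 probes of the 7 measured genes, filled where the adjusted p over all probes was under 0.05. The intervals of both Myh7 probes lie above 1.8, those of Myl7 and of the Myl4 probe A_51_P413130 lie below -0.26, and those of both Myh6 probes span 0.

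The 5 named genes whose values followed those of Myh7 most closely over the 8 arrays, by the root mean square difference after centring on the satiated mean, were Clec4d, Syt12, Tmem71, Jaml and Cd300lf. The distances were 0.52, 0.56, 0.57, 0.57 and 0.58 log2 units. Clec4d, a C-type lectin of myeloid cells, rose by 3.13 ± 0.29, and Syt12, a synaptotagmin, by 2.96 ± 0.23. Tmem71 rose by 2.84 ± 0.20, Jaml, an adhesion molecule of leukocytes, by 3.26 ± 0.31. Cd300lf, a receptor of myeloid cells, gave 3.20 ± 0.22, but its probe was well above background on 1 of the 4 satiated and all 4 fasted arrays, so this value rests on satiated signals near background. That of Clec4d was well above background on 3 satiated and 4 fasted arrays, and those of the other 3 genes on all 8. The choice by distance to Myh7 itself favours rises of its size. Of 6 measured macrophage markers 0 passed in limma, with 1 at an unadjusted p under 0.05, against 6834 of 20209 tested features.

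The genes around the cardiac myosins were described in lists, with the counts called over all tested genes set against the 20.2% background. Of 18 other myosin chains 14 were measured, of which 2 rose and 3 fell (median -0.14). Myh14, a nonmuscle myosin II heavy chain, rose by 0.99 ± 0.13, from 4.73 to 5.07 in the satiated to 5.75 to 6.01 in the fasted hearts. Myh9, another nonmuscle heavy chain, fell by 0.51 (-0.51 ± 0.10), and Myl1, an essential light chain of fast skeletal muscle, by 0.62 (-0.62 ± 0.14). The others called were Myl6, which fell, and Myl12a, which rose, and both are light chains of nonmuscle and smooth muscle myosin.

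Probes named for skeletal and perinatal heavy chains gave unlike readings and were singled out after their values were seen. Of the 2 probes of Myh4, the heavy chain of the fastest skeletal fibres, A_52_P602147 was bright in every heart, at 7.24 to 7.75 in the satiated and 7.26 to 7.88 in the fasted hearts. The other, A_51_P338072, stood at 6.65 in satiated replicate 1, the heart with high fast skeletal genes, and at -5.68 to -1.66 in the other 7. Of the 2 probes of Myh8, the perinatal heavy chain, A_51_P143296 stood at 7.92 to 8.39 in all hearts and A_52_P224283 was not above background on any array. After centring on the mean of all hearts, the bright Myh4 probe lay 0.16 log2 units and the bright Myh8 probe 0.25 log2 units from Myh6 by root mean square difference, ranking 558 and 2361 among all kept probes. The probes of Myh1 and Myh2 were at most 1.62 and -0.33 in any heart. The sequences of these probes were not used here, so the share of one heavy chain's transcript in the signal of another's probe was not tested, for Myh6 and Myh7 as well.

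**Figure D4:**
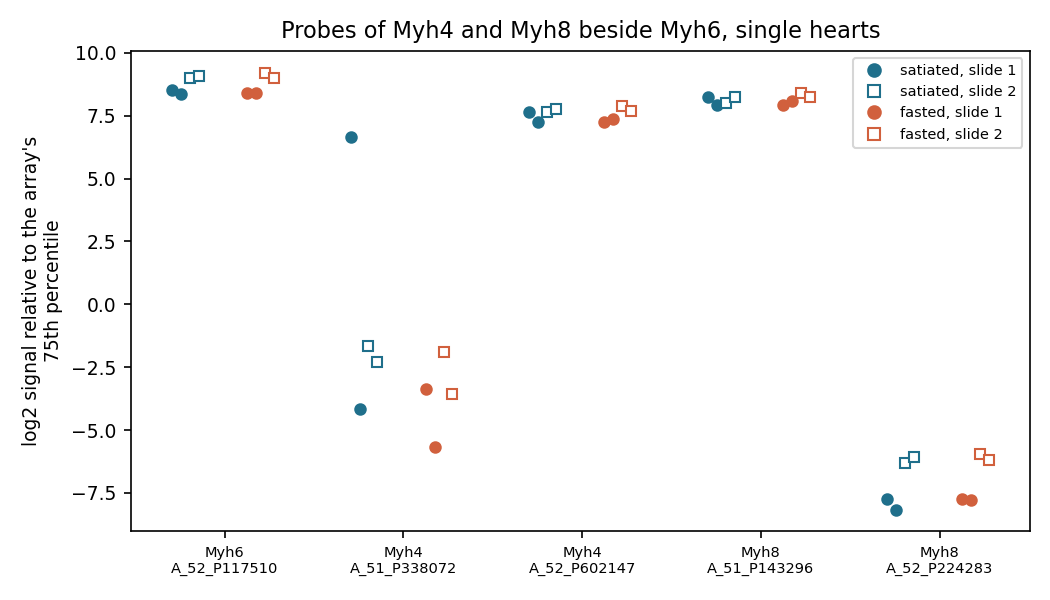
The log2 signal relative to the 75th percentile of each array is plotted for each heart (filled, slide 1; open, slide 2) for the representative Myh6 probe and the 2 probes each of Myh4 and Myh8. In both of these genes 1 probe is bright in all 8 hearts and the other dim, except that the dim Myh4 probe reaches 6.65 in satiated replicate 1.

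Of 12 measured thick filament and M-band partners 2 rose and 2 fell (median -0.17). Fhl2, a LIM protein bound to titin, fell by 1.02 (-1.02 ± 0.12), from 8.16 to 8.23 in the satiated to 7.02 to 7.40 in the fasted hearts. Trim63, the ubiquitin ligase MuRF1, which marks thick filament proteins for breakdown, rose by 1.24 ± 0.26, and its relative Trim54 by 0.82 ± 0.14. The other called gene was Mybph, which fell. In the fit with a slide term 8 of the 12 passed, against 35.5% of all features. Of 10 myosin folding factors 1 fell, the Hsp70 and Hsp90 co-chaperone Stip1 (-0.91 ± 0.15). The dedicated myosin chaperone Unc45b, named after its value was seen, gave -0.25 ± 0.18 (adjusted p = 0.381 in limma).

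Of 11 measured genes of the myosin light chain kinases and phosphatase 3 rose and 1 fell (median 0.18). Ppp1r14c, an inhibitor of protein phosphatase 1, fell by 1.77 (-1.77 ± 0.12), from 4.31 to 4.60 in the satiated to 2.54 to 2.83 in the fasted hearts. Ppp1r12c, a targeting subunit of the phosphatase, rose by 0.94 ± 0.17, and Dapk3, a kinase that can phosphorylate the regulatory light chain, by 0.51 ± 0.11. The other gene called was Ppp1r12a, another targeting subunit, which rose.

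Of 33 measured transcription factors and cofactors of cardiac myosin genes 2 rose and 4 fell (median -0.09), a share near the background. Rxrg, a retinoid X receptor that pairs with thyroid hormone receptors, fell by 1.48 (-1.48 ± 0.23), from 4.68 to 5.09 in the satiated to 2.77 to 3.81 in the fasted hearts. Mef2d rose by 0.68 ± 0.19 and Hdac5, a class IIa histone deacetylase that binds MEF2 factors, by 0.54 ± 0.16. The others that fell were Mef2c, Hdac9 and Sox6. The thyroid hormone receptors, named after their values were seen, gave 0.01 ± 0.23 for Thra and -0.39 ± 0.24 for Thrb (adjusted p = 0.988 and 0.286 in limma).

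Of 8 genes that thyroid hormone raises in the heart 1 rose and 2 fell, with a median of -0.66. Adrb1, the beta-1 adrenergic receptor, fell by 1.73 (-1.73 ± 0.19), and Slc2a4, the insulin-regulated glucose transporter, by 0.67 (-0.67 ± 0.15), while Ucp2, a mitochondrial carrier, rose by 0.63 ± 0.15. In the fit with a slide term 4 of the 8 passed, where 35.5% of all features did. The added gene was Hcn2, a pacemaker channel (-0.68 ± 0.42, adjusted p = 0.306 without and 0.00422 with the slide term in limma). Of 4 genes that it lowers, 0 passed in limma and 1 had an unadjusted p under 0.05, against 6834 of 20209 tested features. This was Pln, the phosphoprotein that restrains the calcium pump of the sarcoplasmic reticulum (-0.42 ± 0.14, adjusted p = 0.0680). Pln passed in the fit with a slide term (adjusted p = 0.0157).

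Of 6 genes of the fetal program that often return together with Myh7, 2 rose (median 0.41). Nppb, the B-type natriuretic peptide, rose by 1.53 ± 0.26, from 4.46, 4.58, 5.25 and 4.43 in satiated replicates 1 to 4 to 6.39, 5.59, 6.38 and 6.45 in fasted replicates 1 to 4. Satiated replicate 3 was the highest of its group, as it was for Myh7. Ankrd1, a stretch-responsive protein of the sarcomere, rose by 1.35 ± 0.23. Acta1, the skeletal alpha actin of the fetal heart, and Tnni1 did not pass, with -0.46 ± 0.24 and -0.16 ± 0.24. Nor did Slc2a1 (0.68 ± 0.26, adjusted p = 0.104 in limma) and Nppa (0.14 ± 0.12, adjusted p = 0.481 in limma). Nppa was highest of the satiated hearts in replicate 1, at 9.01.

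**Figure D5:**
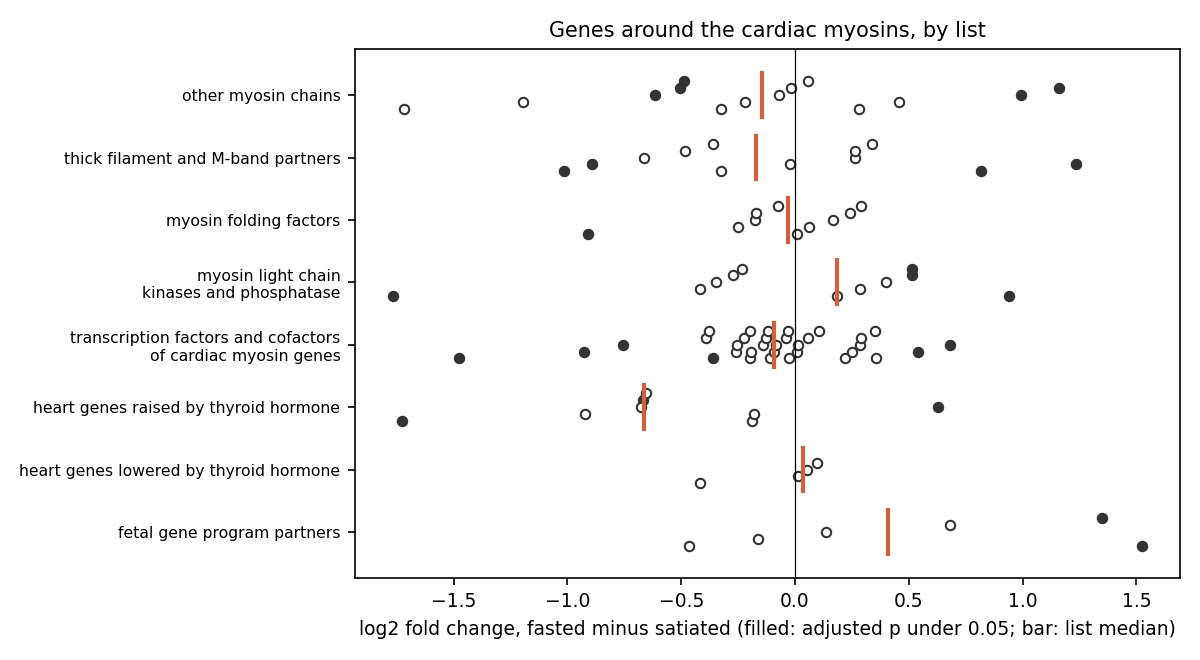
The log2 fold change, fasted minus satiated, is plotted for each measured gene of the 8 lists, filled where the adjusted p over all tested genes was under 0.05, with a bar at the median of each list. The medians run from -0.66 for the genes raised by thyroid hormone to 0.41 for the fetal program, and all but 2 of the filled points lie within 1.6 of 0.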

How the data were processed

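RNA of 8 hearts, 4 per group, was labelled with Cy3 and put on 1 array each, per the labels. The deposited scanner tables hold background-subtracted spot intensities from Agilent Feature Extraction (10.5.1.1 for slide 1, 10.7.3.1 for slide 2), not yet scaled between arrays, per the file headers. The submitters' processing notes name version 9.1. The authors' deposited series table holds linear ratios of unstated scaling, in the direction of the intensities, and was an alternative after a log2 step. The number of arrays limits precision.

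Each array's processed intensities were put on a log2 scale and their 75th percentile was set to 0. Controls (1639 of 45018 spots) and outlier spots were left out, and repeat spots averaged. A probe was kept if well above background on 4 arrays or more (26488 of 41174), and the brightest stood for its gene. Names came from slide 1's accessions through the RefSeq table of GRCm38.p6 (26690 probes, 64.8%, none with several genes). Slide 2's tables give 1782 probes another accession, which would name 252 more, drop 24 and rename 10, with 0 member probes affected. The array's own annotation is of mm9. Groups were compared with limma 3.58.1 in R 4.3.3, two-sided, without covariates, with Benjamini-Hochberg adjustment over 20209 genes and unnamed probes, and the fit was tested on simulated data. Alternatives were other scalings, filters, probe rules, sources, blocks, weights and left-out arrays. Figures used matplotlib 3.10.9.

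Named were all members, up to 3 called genes with the smallest p per pathway list (the single smallest where none was called) and the 5 genes closest to Myh7. Marker genes, Acta1, Tnni1, Slc2a1, Hcn2, other called list genes and those said to be so were named after their values were seen. The members and lists were chosen with earlier results of these data known.

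Same-numbered hearts of the groups deviated together from their group means (r = 0.33 to 0.49 across genes, which are not independent). Hearts of unlike number on the same slide did so alike, at 0.29 to 0.52. The numbers are thus not set apart from the slide, and no pairing is read from them. The replicate block was fitted as an alternative only.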

Additional observations from a re-analysis of the deposited data

Results flagged for a closer look

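In fasted replicate 3 the signal of the Myh7 probe A_52_P88033, 9.01, stood apart from the other 3 fasted hearts, of which the nearest was at 8.78. In the same heart the Myl3 probe A_51_P434910, at 5.43, stood apart from the other fasted hearts, of which the nearest was at 5.18. Of 28 sets of 4 values examined for such a gap, 2 had one, and chance gives about 1 in 20.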

How the results depend on the processing

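The rise of Myh7 kept its direction in all 21 alternatives, with a lowest value of 2.75. It kept its call in 20, all but slide 2 alone (3.12, adjusted p = 0.118 in limma). The filters and blocks left the size of this rise unchanged and bear on its call only. The changes of Myh7 against Myh6 and of Myl7 against Myl2 kept their direction throughout. That of Myl4 against Myl3 did too, at -0.22 on slide 1 alone and -0.62 on slide 2 alone. Subtracting a single value per array or adding a block cannot alter such within-array differences, and the filters left them unchanged. Those alternatives therefore do not test them. No call was made for Myh6 or Myl2 under any alternative. Scaling to 12 cardiomyocyte markers, whose mean change was -0.36, moved the median of all features to 0.36 and the share of calls that were higher from 48.7% to 89.6%; under it Myl3 was called upward (0.36, adjusted p = 0.0436) and Myl7 was not called (-0.21). The call of Myl7 was also lost with the array median (-0.57), with no filter on dim probes (-0.58), the authors' deposited table (-0.58), slide 1 alone (-0.53) and slide 2 alone (-0.62). That of Myl4 was gained with quantile normalization (-0.53), probes above background on all arrays (-0.42), the mean of its probes (-0.48), array weights (-0.42), the slide as a block (-0.42) and the replicate block (-0.42), and that of Mybpc3 with quantile normalization (-0.43) and array weights (-0.55). Under the cardiomyocyte scaling Myl4 gave -0.06 and Mybpc3 -0.03, neither called. The genes called were 4077, against 6636 under the cardiomyocyte scaling, 7180 with the slide as a block, 6490 with the replicate block, 2225 without the filter, 1880 on slide 1 and 1 on slide 2, where 5335 had an unadjusted p under 0.05. The replicate block changed no call among the members but that of Myl4. Members called were 2, where 20.2% of all features were called. They were 4 with quantile normalization (21.2% of all features) and array weights (26.7%). With the median (18.8%), no filter (6.8%), the authors' deposited table (18.7%) and slide 1 (9.3%) they were 1. On slide 2 they were 0 in limma, with 1 feature called in all. Member probes called were 4, where 21.1% of all kept probes were called. They were 7 with quantile normalization and array weights, 2 without the filter or on slide 1, and 0 on slide 2. The share of all probes called was not computed for these alternatives. Leaving out 1 array at a time gave 2497 to 3692 genes, 1 to 3 members, 2 to 5 member probes, 2.88 to 3.60 for Myh7, -0.67 to -0.52 for Myl7, -0.51 to -0.35 for Myl4 and -0.54 to -0.28 for Mybpc3. The normexp correction was run on the median spot signal, chosen after seeing the data, and changed no call among the members; the planned form on the mean signal was not run.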

Other observations

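Beyond the cardiac myosin genes, the B lineage and mesothelial markers were the lists of other cells with calls upward only, 1 call each. Of 3 measured B lineage genes 1 rose (Ms4a1, log2 fold change 1.55 ± 0.36, SE), and of 5 mesothelial genes 1 (Upk1b, 1.02 ± 0.21). Over all tested features 9.82% were called higher and 10.4% lower, and 1 call in so few genes is not set apart from this. Of 7 fibroblast markers 5 fell and 1 rose, Col3a1 by -2.56 ± 0.40 and Dcn by 0.56 ± 0.12, and of 7 smooth muscle markers 2 fell and 1 rose. Of 7 endothelial, 5 adipocyte and 3 erythroid genes, 0 passed in limma, with 1, 2 and 0 at an unadjusted p under 0.05, against 6834 of 20209 tested features.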
